A study of Mus musculus with 15 samples.

Results

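The comparison described here set HSCs whose murine Gfi1 gene had been replaced by human GFI1 against HSCs with the murine gene, so that the designed difference was the GFI1 allele. Its members were chosen by genotype label alone, and they are 6 of the 15 RNA-seq libraries of the series, 3 GFI1-KI and 3 Gfi1-WT. GFI1-KI HSCs were homozygous for the knock-in (KI/KI, titled GFI1-36S, the common human form of GFI1), with the human cDNA placed in the murine locus. Gfi1-WT HSCs carried murine Gfi1 on both alleles. All cells were untreated HSCs (Lin-Sca1+c-Kit+CD150+CD48-) sorted from bone marrow of tibiae, femora and humeri. The labels gave no age, sex, litter or sort day for either genotype, and no source said whether the 3 libraries of a genotype came from separate mice, so each p-value measures only the spread between libraries. The other 9 libraries, 3 each of Gfi1-KO, GFI1-KD and GFI1-36N HSCs, serve here only for the estimate of spread and as a range.

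GFI1 is a zinc finger repressor that binds DNA through its C-terminal fingers and recruits KDM1A, RCOR1 and histone deacetylases through its N-terminal SNAG domain. In bone marrow it restrains HSC proliferation, and it is needed for neutrophil and lymphoid development. It also represses its own gene and that of its paralogue Gfi1b, which shares the SNAG domain and the fingers and predominates in erythroid cells and megakaryocytes. Because the knock-in uses the murine locus, the murine promoter drives the human cDNA.

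Promoters from RefSeq (GRCm38.p6, 250 bases before to 50 after a start) are shown for Gfi1, the edited locus, and for Nudc and Gapvd1, the abundant genes of the results below whose listed promoter held the motif. Capitals mark AAATCA, which holds AATC, the core of the site GFI1 binds, with a flanking base on each side, or its reverse complement TGATTT. The motif was searched on both strands and occurred in 14% of 32851 listed promoters of this length, whereas the core alone, AATC or GATT, occurred in 73.1%. Another listed Gfi1 promoter, chr5:107724294-107724593 on the minus strand, held no match to AAATCA or to the core and is not shown. The Gfi1 promoter shown, chr5:107725756-107726055 on the minus strand, held no match to AAATCA and 1 to the core in this window:
Gfi1: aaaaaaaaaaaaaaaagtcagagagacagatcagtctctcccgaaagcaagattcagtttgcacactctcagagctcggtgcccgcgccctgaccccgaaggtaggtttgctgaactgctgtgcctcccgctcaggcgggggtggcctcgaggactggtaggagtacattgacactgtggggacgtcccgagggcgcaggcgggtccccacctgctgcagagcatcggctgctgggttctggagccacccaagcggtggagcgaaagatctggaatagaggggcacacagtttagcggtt
The Nudc promoter, chr4:133545978-133546277 on the minus strand, held 1 match:
Nudc: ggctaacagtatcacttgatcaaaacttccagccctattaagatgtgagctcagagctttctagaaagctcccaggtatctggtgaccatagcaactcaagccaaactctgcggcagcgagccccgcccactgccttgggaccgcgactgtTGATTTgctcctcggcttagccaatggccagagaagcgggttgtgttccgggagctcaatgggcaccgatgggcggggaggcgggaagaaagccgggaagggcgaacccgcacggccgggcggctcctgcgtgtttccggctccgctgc
The Gapvd1 promoter, chr2:34755183-34755482 on the minus strand, held 2 matches:
Gapvd1: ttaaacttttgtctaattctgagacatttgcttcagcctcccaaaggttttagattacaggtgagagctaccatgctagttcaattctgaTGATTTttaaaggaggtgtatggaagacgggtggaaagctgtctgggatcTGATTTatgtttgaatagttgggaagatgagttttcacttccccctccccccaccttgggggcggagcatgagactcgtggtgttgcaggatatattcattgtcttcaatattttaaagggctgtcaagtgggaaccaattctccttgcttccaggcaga
These were 2 of the 9 genes with a listed promoter among the 12 abundant genes named below, and a match is a description of the letters, not of binding.

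The libraries were of similar depth and detected unequal numbers of genes. The 6 libraries held 16.35 to 19.98 M estimated counts (M, 1000000), and between 12305 and 15125 gene symbols were above 0. GFI1-KI replicate 2 had the most and Gfi1-WT replicate 3 the fewest. Spearman correlations of the tested genes were 0.704 to 0.82 within GFI1-KI, 0.722 to 0.818 within Gfi1-WT and 0.681 to 0.88 between the genotypes, and the most alike pair was GFI1-KI replicate 2 with Gfi1-WT replicate 1. No pair of libraries held identical values. The ranges within and between genotypes thus overlapped.

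GFI1-KI replicate 2 held more transcripts of some mature lineages than the other 5 libraries. Mpo, the neutrophil granule peroxidase, was at 839 CPM (TMM-scaled counts per 1000000) in that library, at 30.6 CPM in Gfi1-WT replicate 2 and at 0 in the remaining 4. Igkc, the immunoglobulin kappa constant region, was at 1102 CPM in it and at 0 in the other 5. The neutrophil granule list summed to 1849 CPM there against 402 to 720 CPM in the others, with 20 of its 23 members at 1 CPM or more against 4 to 9. Of the 20 members above 0 in any library, 12 were highest in GFI1-KI replicate 2, while others such as Mmp8, at 9.45 CPM there and 102.35 CPM in Gfi1-WT replicate 3, were highest elsewhere. Over all tested genes, 12.8% were highest in GFI1-KI replicate 2. The list of genes of multipotent progenitors (MPPs) summed to 2152 CPM against 614 to 946 CPM. This list shares Mpo, Elane and Ctsg with the neutrophil list, and they were at 839, 191 and 76.4 CPM in GFI1-KI replicate 2. Flt3 and Cd48 were highest elsewhere, and 9 of the 16 MPP genes were highest in GFI1-KI replicate 2. The mast cell and basophil list summed to 2307 CPM there against 1209 to 2035 CPM. Of its 14 members above 0 in any library, 6 were highest there, among them Prg2 at 686 CPM there and at 0 in the other 5. Markers of T cells, stroma and endothelium were present in part. The T and NK cell list summed to 444 to 604.5 CPM in GFI1-KI and 295 to 638 CPM in Gfi1-WT, with 5 to 10 of its 25 members at 1 CPM or more. Cd3e, a subunit of the T cell receptor complex, was at 0 in all 6 libraries, whereas Lat, an adaptor of that receptor, was at 49.2 to 210 CPM. The stroma and endothelium list summed to 93.9 to 155 CPM in GFI1-KI and 167 to 211 CPM in Gfi1-WT, with 3 to 7 of its 23 members at 1 CPM or more. In it Cdh5 and Col1a1 were at 0 throughout, while Pecam1 was at 53 to 112 CPM and Col1a2 reached 48.1 CPM in Gfi1-WT replicate 3. The part of these transcripts in the results was not tested. Medians of the MPP, neutrophil, erythroid, monocyte, B cell, T and NK cell and megakaryocyte lists are therefore given with and without GFI1-KI replicate 2. The median log2 fold change of mast cell and basophil genes was 0.605, from 0 to 1.08 with 1 library left out. For stroma and endothelium genes it was -0.498, from -0.784 to -0.189.

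**Figure D1:**
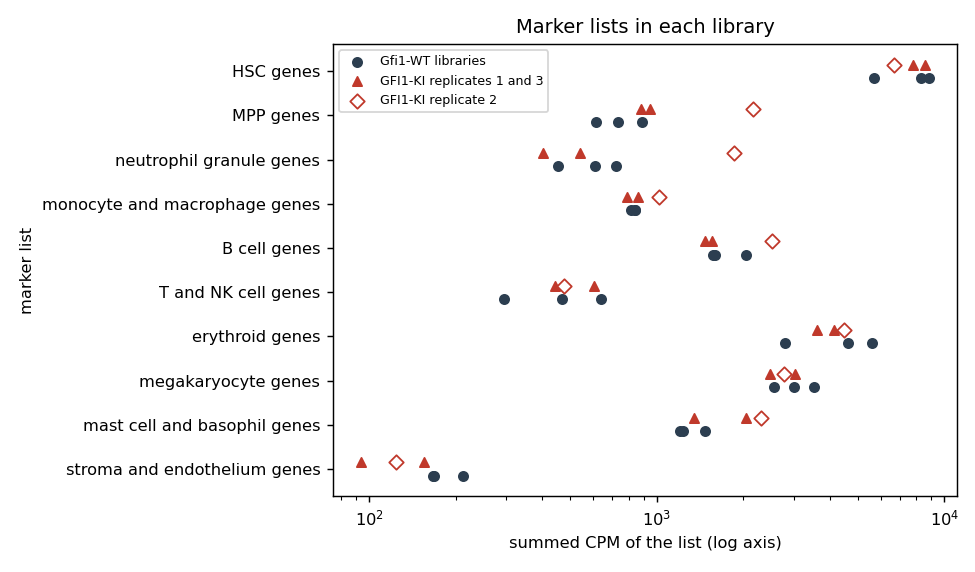
Summed CPM (log axis) of 10 marker lists in each of the 6 libraries, 1 point per library. GFI1-KI replicate 2, the open diamond, stands to the right of the other libraries for the neutrophil granule list (1849 against 402 to 720 CPM) and the MPP list (2152 against 614 to 946 CPM). Both of these lists hold Mpo, Elane and Ctsg.

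The sorted identity of the cells was visible in part. Hlf, a transcription factor of long-term HSCs, was at 117 to 521 CPM in the 6 libraries. Mecom, a regulator of HSC self-renewal, was at 61.8 to 265 CPM. Both genes were thus expressed in every library. Slamf1, which encodes CD150, was at 9.56, 82.3 and 48.2 CPM in GFI1-KI and at 149, 74.1 and 19.7 CPM in Gfi1-WT, and Ly6a, which encodes Sca1, was at 0 to 66 CPM. Both sort genes were thus low and uneven between libraries in either genotype. Cd48, the gene of the CD48 antigen that the sort excluded, was at 46.2, 19.8 and 11.6 CPM in GFI1-KI. In Gfi1-WT it was at 4.69, 12.9 and 0 CPM, and the groups overlapped (log2 fold change 2.14 ± 2.45, SE). Ebf1, a transcription factor known from B cell development, was at 1009 to 1471 CPM in the 6 libraries.

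Murine Gfi1 reads were counted first, as the check of the genotype. Gfi1 (chr5:107716657-107726036, GRCm38) had an estimated count of 0, 126 and 31.2 in GFI1-KI replicates 1 to 3 and of 4.85, 0 and 0 in Gfi1-WT. The highest values lay in the genotype that carries the human cDNA, and 3 of the 6 libraries were at 0. The mean was 52.3 ± 65.5 in GFI1-KI and 1.62 ± 2.80 in Gfi1-WT (SD, n = 3 each), and the groups overlapped (two-sided exact permutation test, p = 0.4, where the smallest possible p is 0.1). The reference held mouse cDNA only, so a human transcript could be counted here only where its reads matched the mouse sequence. In the 6 libraries the transcript Gfi1-203 held nearly the whole signal, at 0, 126 and 39.1 estimated counts in GFI1-KI and 5.96, 0 and 0 in Gfi1-WT, while Gfi1-201 and Gfi1-202 were at 0 in all of them. These counts did not separate the genotypes, and the labels could not be checked by this gene.

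Gfi1b gave a well-measured value in every library. It was at 148, 230 and 131 CPM in GFI1-KI and at 152, 223 and 156 CPM in Gfi1-WT, so the groups overlapped entirely. Its log2 fold change of GFI1-KI over Gfi1-WT was -0.06 ± 0.47 (SE), with a 95% interval from -1.08 to 0.95, which leaves room for a difference of about a doubling either way. Its transcript Gfi1b-204 was at 0 in GFI1-KI replicate 1 and at 979 to 2727 estimated counts in the other 5 libraries.

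No gene passed the test between GFI1-KI and Gfi1-WT HSCs. Of 35533 gene symbols, 13358 had enough counts, and 0 of these (0%) had an adjusted p under 0.05 in edgeR's quasi-likelihood test with Benjamini-Hochberg adjustment, all adjusted p-values being 1. At an unadjusted p under 0.01, the threshold used in the study, 13 genes were called (0.0973%), 10 higher (0.0749%) and 3 lower (0.0225%) in GFI1-KI. Leaving out 1 library gave 7 to 38 such genes, with 7 without GFI1-KI replicate 1 or Gfi1-WT replicate 2, 38 without GFI1-KI replicate 2 and 35 without Gfi1-WT replicate 1. At an unadjusted p under 0.05 there were 279 genes (2.09%), 147 higher (1.1%) and 132 lower (0.988%). limma-trend also called 0 genes after adjustment, whereas DESeq2 called 131, of which 110 were at 0 in every library of a genotype and 10 were above 0 in all 6 libraries. Every value below therefore describes a difference that did not pass the adjusted test.

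How narrowly a difference was bounded depended on the level of the gene. The median SE of the log2 fold change was 1.62 over the tested genes and 0.476 over the 2305 genes with a mean of 100 CPM or more. Of those 2305 genes, 94.9% had a fold change below a doubling or halving, and 660 (28.6%) had a 95% interval wholly within it. Of 92 genes at 1000 CPM or more, 94.6% had such an interval. For genes under 10 CPM no interval was that narrow. All 3 GFI1-KI libraries lay above all 3 Gfi1-WT libraries for 595 genes (4.45%) and below them for 560 (4.19%), together 8.65%. By fold change alone 50% of the tested genes were higher and 49.8% lower in GFI1-KI.

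**Figure D2:**
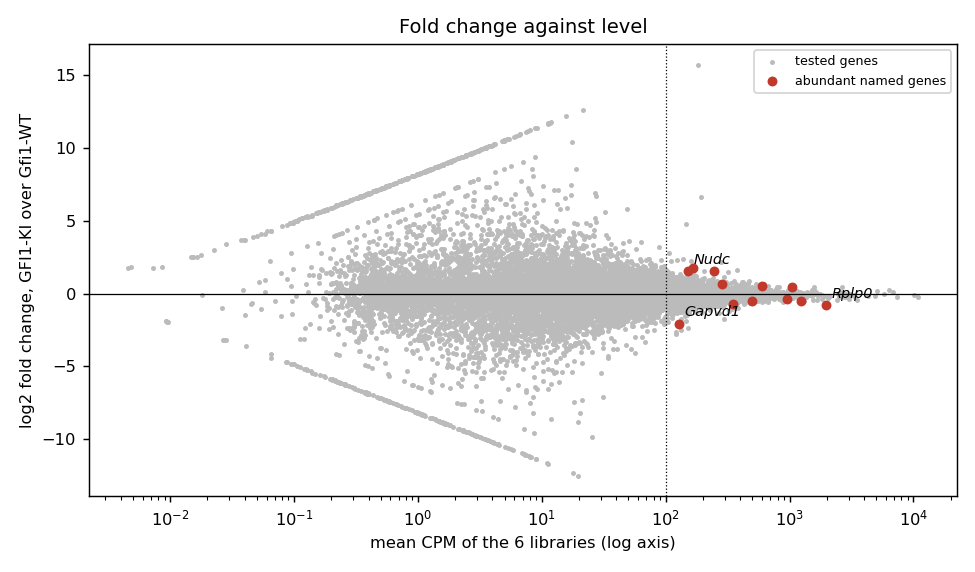
Log2 fold change of GFI1-KI over Gfi1-WT against mean CPM of the 6 libraries (log axis) for 13358 tested genes, 1 point per gene, with the 12 abundant named genes in red and a dotted line at 100 CPM. The cloud narrows with level, and the straight edges are genes at 0 in every library of a genotype, whose fitted fold change has no fixed size.

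Among genes at 100 CPM or more, the 6 with the lowest p that were higher in GFI1-KI were Nudc, Nfe2, Slbp, Csnk2a1, Tardbp and Papola. Nudc, which encodes a dynein-associated chaperone needed for division (chr4:133532542-133545996), was at 271, 277 and 126 CPM in GFI1-KI and at 98.3, 66.3 and 68 CPM in Gfi1-WT. Every GFI1-KI library was above every Gfi1-WT library, and the other 9 libraries ranged from 80.1 to 170 CPM. Its log2 fold change was 1.53 ± 0.41 (SE; edgeR, unadjusted p = 0.00251, adjusted p = 1). DESeq2 called Nudc, at an adjusted p of 0.00121.

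Nfe2, the haematopoietic subunit of the NF-E2 transcription factor used by megakaryocytes and erythroid cells, was at 259, 385 and 127 CPM in GFI1-KI and at 91.9, 93.3 and 49.5 CPM in Gfi1-WT. The groups did not overlap, and the log2 fold change was 1.72 ± 0.60 (SE). Papola, the nuclear poly(A) polymerase, was at 355, 645 and 93.9 CPM in GFI1-KI and at 87.7, 69.2 and 213 CPM in Gfi1-WT, so that GFI1-KI replicate 3 lay within the Gfi1-WT range. Leaving out 1 library or using another tool took its log2 fold change from 0.87 to 2.22.

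Slbp, Csnk2a1 and Tardbp differed by less. Slbp, the stem-loop binding protein of histone mRNA, was at 708, 692 and 740 CPM in GFI1-KI and at 553, 457 and 456 CPM in Gfi1-WT (log2 fold change 0.55 ± 0.20, SE). Csnk2a1, the catalytic subunit of casein kinase 2, was at 1165, 1222 and 1173 CPM in GFI1-KI and at 893, 972 and 801 CPM in Gfi1-WT (0.42 ± 0.16). Tardbp, which encodes the RNA-binding protein TDP-43, was at 388, 390 and 260 CPM against 214, 250 and 200 CPM (0.64 ± 0.25). The groups did not overlap for any of these 3 genes, while the GFI1-KI values lay inside the range of the other 9 libraries.

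In the other direction, the 6 abundant genes with the lowest p were Psmb2, Npm1, Rplp0, Gapvd1, Ifitm2 and Skp1. Psmb2, a beta subunit of the 20S proteasome (chr4:126677630-126709714), was at 255, 278 and 261 CPM in GFI1-KI and at 360, 483 and 478 CPM in Gfi1-WT. Its log2 fold change was -0.74 ± 0.19 (SE; edgeR, unadjusted p = 0.00204, adjusted p = 1), and DESeq2 called it at an adjusted p of 0.000903. The other 9 libraries ranged from 332 to 424 CPM, so the 3 GFI1-KI libraries were below all other 12 libraries of the series.

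Npm1, the nucleolar chaperone nucleophosmin (chr11:33152287-33163206), was at 872, 1185 and 1005 CPM in GFI1-KI and at 1364, 1461 and 1551 CPM in Gfi1-WT. The groups did not overlap, and the log2 fold change was -0.51 ± 0.15 (SE). Rplp0, a protein of the ribosomal stalk (chr5:115559467-115563727), was at 1537, 1381 and 1425 CPM in GFI1-KI and at 2149, 3254 and 2042 CPM in Gfi1-WT (-0.78 ± 0.22). Both were at 872 CPM or more in each library, and their intervals ended at -0.20 and -0.29.

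Gapvd1, a Rab5 exchange factor of endocytosis, had the largest difference of the abundant genes named. It was at 66.7, 53.5 and 28 CPM in GFI1-KI and at 163, 116 and 339 CPM in Gfi1-WT (log2 fold change -2.06 ± 0.69, SE). Ifitm2, an interferon-induced membrane protein that limits virus entry, was at 869, 777 and 816 CPM in GFI1-KI and at 915, 1260 and 1067 CPM in Gfi1-WT (-0.40 ± 0.13). For Ifitm2, as for Psmb2, the GFI1-KI libraries lay below the other 12 libraries.

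Skp1, the adaptor of SCF ubiquitin ligases, was at 371, 428 and 427 CPM in GFI1-KI and at 514, 529 and 719 CPM in Gfi1-WT (-0.52 ± 0.19, SE), again without overlap. Over the 2305 genes at 100 CPM or more, the GFI1-KI libraries lay above the other 12 for 1 gene and below them for 8, together 0.39%. The corresponding shares were 0.0868% for Gfi1-WT, 0.26% for GFI1-KD, 0.347% for Gfi1-KO and 0.868% for GFI1-36N. Over all 13358 tested genes the direction was the opposite, with 20 above and 9 below. More genes lay above than below in each of the 5 genotypes, with 19 and 7 in Gfi1-WT and 23 and 6 in GFI1-KD. The filter on low counts can admit a gene through 1 genotype where it is high, so this split describes no direction of GFI1-KI. The share was 0.217%, the same as for GFI1-KD and between 0.195% for Gfi1-WT and 0.546% for GFI1-36N.

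**Figure D3:**
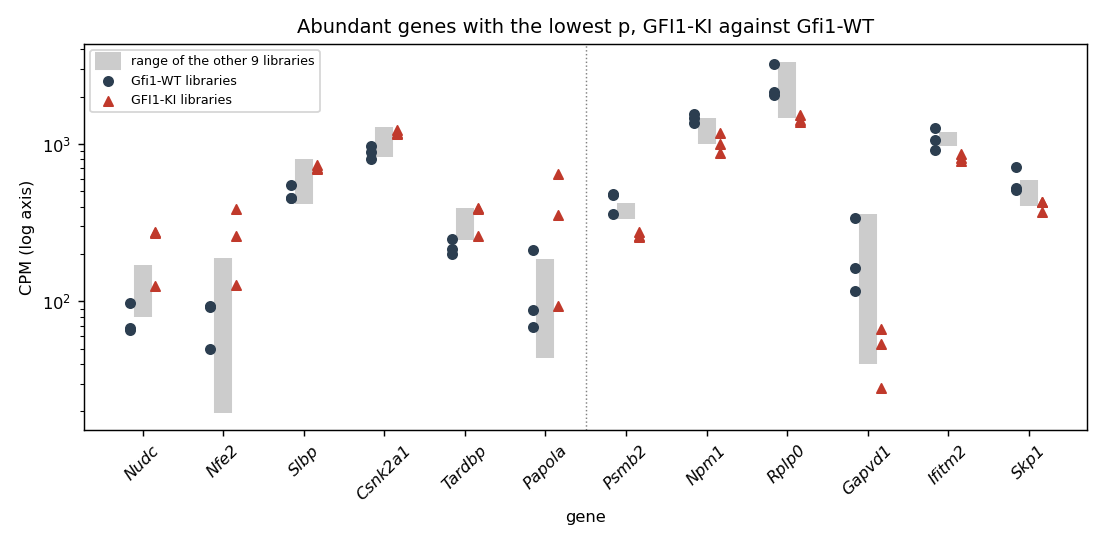
CPM (log axis) of the 12 abundant genes with the lowest p, 6 higher (left of the dotted line) and 6 lower in GFI1-KI. Circles are Gfi1-WT libraries, triangles are GFI1-KI libraries, and grey bars span the other 9 libraries. GFI1-KI values of Psmb2 (255 to 278 CPM) and Ifitm2 (777 to 869 CPM) lie below the grey bars.

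Among low genes, 6 were at 1 CPM or more in all GFI1-KI libraries and at 0 in all Gfi1-WT libraries, and 6 showed the reverse. Prkar1b, a regulatory subunit of protein kinase A, was at 1.89, 3.2 and 7.71 CPM in GFI1-KI, and at 0 in Gfi1-WT and in the other 9 libraries. Against a floor of 3 counts over the summed Gfi1-WT libraries it was at least 72.4-fold higher. Prkar1b passed the filter on low counts through the GFI1-KI libraries alone, so this bound is no test of a difference. Slc25a15, a mitochondrial ornithine carrier, was at 10, 4.77 and 5.02 CPM in GFI1-KI and at 0 in Gfi1-WT, at least 112-fold higher. The other 4 genes of this kind were Crybg1, Gm45140, Itpr3 and Ighm, the last an immunoglobulin heavy chain gene that reached 1185 CPM in the other 9 libraries.

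In the reverse direction, Cd36, a fatty acid and thrombospondin receptor, was at 0 in GFI1-KI and at 6.87, 19.3 and 92.2 CPM in Gfi1-WT, at least 750-fold lower in GFI1-KI. Pitpnm2, a phosphatidylinositol transfer protein, was at 0 in GFI1-KI and at 1.81, 19.3 and 20.1 CPM in Gfi1-WT, at least 264-fold lower. Cd36 was between 0 and 12.3 CPM in the other 9 libraries, with a mean of 0 in GFI1-KD and in GFI1-36N. The other 4 were Palld, Gm10037, and the processed pseudogenes Gm10297 and Gm15801, whose reads cannot be told apart from those of their parent genes with certainty. The bounds given for genes of either direction cover counting error only. Because the filter on low counts can admit a gene through the genotype where it is high, none of these bounds is a test of a difference. The 12 genes were listed after their values were seen.

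Other low genes among the lowest p-values were uneven within a genotype. Stard8 was at 75, 5.12 and 26 CPM in GFI1-KI and at 0.0797, 0 and 0 CPM in Gfi1-WT. Ubash3a, a suppressor of T cell receptor signalling, was at 171, 75.6 and 38 CPM in GFI1-KI against 3.46, 0.437 and 1.26 CPM. Ltbp3, a binding protein of latent TGF-beta, was at 153, 3.4 and 7.47 CPM against 1.36, 0.147 and 0 CPM. For these 3 genes GFI1-KI replicate 1 held the highest value. Maf, a transcription factor of macrophages and lymphocytes, was at 0.183 to 0.253 CPM in GFI1-KI and at 16.2, 0.266 and 92 CPM in Gfi1-WT, where replicate 2 was at the GFI1-KI level. Gm13827, Gpsm1 and Gm11189 completed the genes with the lowest p-values, at means under 10 CPM in both genotypes.

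HSC genes were divided evenly between the genotypes. Of 48 HSC genes tested, 22 had a higher and 26 a lower level in GFI1-KI. Their median log2 fold change was -0.08, beside 0 over all tested genes, and without Gfi1-WT replicate 2 it was 0.14, with 27 higher. At an unadjusted p under 0.05, 0 were higher and 2 lower, Mllt3 and Neo1, beside 1.1% and 0.988% of all tested genes. Mllt3, a cofactor that maintains human HSCs, was at 99, 95 and 46.9 CPM in GFI1-KI and at 278, 207 and 60.9 CPM in Gfi1-WT, and the groups overlapped. Neo1, the neogenin receptor, was at 0, 0.401 and 0 CPM in GFI1-KI and at 41.3, 3.53 and 76.3 CPM in Gfi1-WT. Meis1, a homeobox factor and a reported GFI1 target, was at 1083, 1387 and 1334 CPM in GFI1-KI and at 1431, 1396 and 641 CPM in Gfi1-WT (log2 fold change 0.13 ± 0.42, SE).

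Kit, the stem cell factor receptor and a gene of the sort, was at 824, 504 and 481 CPM in GFI1-KI and at 418, 186 and 386 CPM in Gfi1-WT. The groups did not overlap, and the log2 fold change was 0.87 ± 0.43 (SE), with an interval from -0.06 to 1.80. Cd34, whose product marks short-term HSCs and progenitors in the mouse, was at 244, 338 and 238 CPM against 188, 164 and 49.3 CPM (1.03 ± 0.73). Runx1, a core haematopoietic transcription factor, was at 227, 103 and 112 CPM against 95.4, 62.5 and 96.2 CPM (0.80 ± 0.46). All 3 genes were above their Gfi1-WT values in every GFI1-KI library, and none passed an unadjusted p of 0.05. GFI1-KI lay above Gfi1-WT without overlap for 4.45% of all tested genes and below it for 4.19%. Of the 48 HSC genes 3 lay above and 3 below in this way, and of 12 sort genes 2 lay above and 0 below.

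The medians of MPP, neutrophil, erythroid and monocyte genes turned on GFI1-KI replicate 2, while those of B cell, T and NK cell and megakaryocyte genes kept their sign without it. Of 16 MPP genes 13 had a higher level in GFI1-KI and the median log2 fold change was 1.58, and without replicate 2 the count was 7 of 16 and the median 0. The neutrophil granule median was 0.71 over 12 tested genes with it and -4.9 without it, where Mpo and Elane were at 0 in both remaining GFI1-KI libraries. The erythroid median was 0.61 over 22 genes with it and -0.31 without it, and that of monocyte and macrophage genes was 1.01 over 16 genes with it and 0 over 17 without it. Elane, the neutrophil elastase gene, was at 191 CPM in replicate 2, at 13.5 CPM in Gfi1-WT replicate 2 and at 0 elsewhere. The median of B cell genes was -0.324 over 11 genes and -0.19 without GFI1-KI replicate 2, but 0.497 without Gfi1-WT replicate 1. That of T and NK cell genes was 0.243 over 8 genes and 0.258 without GFI1-KI replicate 2. The median of 23 megakaryocyte genes was -0.10, which was -0.07 without GFI1-KI replicate 2 and 0.235 without Gfi1-WT replicate 3, and Pf4, platelet factor 4, was at 192, 358 and 366 CPM in GFI1-KI and at 202, 253 and 695 CPM in Gfi1-WT. In these bulk samples, fewer cells of a type and less RNA per cell cannot be told apart.

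Most genes of G2 and M phase had a higher level in GFI1-KI, and none passed the adjusted test. Of 88 tested, 67 had a higher and 21 a lower level, that is 76.1% higher beside 50% of all tested genes. Their median log2 fold change was 0.34. For 18 of them (20.5%) the 3 GFI1-KI libraries lay above the 3 Gfi1-WT libraries, beside 4.45% of all tested genes, and for 0 they lay below. By unadjusted p, 1 of them was under 0.05, beside 2.09% of all tested genes. With only the 6 libraries in the fit the count was 8, all higher, beside 231 of all 11530 genes tested in that fit. DESeq2 gave 3 higher and 1 lower, beside 510 of all 13358 tested genes. The SD between replicates of the list's mean level was 0.34 on the log2 scale, as large as the median difference. Without GFI1-KI replicate 2 the count was 63 of 88 and the median 0.31.

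Several abundant mitotic genes showed the pattern by library. Top2a, topoisomerase II alpha, was at 533, 672 and 754 CPM in GFI1-KI and at 524, 417 and 311 CPM in Gfi1-WT (0.65 ± 0.39, SE). Ccnb2, a mitotic cyclin, was at 198, 277 and 167 CPM against 99, 103 and 125 CPM (0.97 ± 0.59). Smc2, a condensin subunit, was at 305, 307 and 382 CPM against 206, 231 and 161 CPM (0.73 ± 0.58). The groups did not overlap for these 3 genes, which were chosen after their values were seen. Ccna2, the cyclin of S phase and G2, went the other way at 10.8, 28.5 and 11 CPM against 69.2, 67.7 and 22.7 CPM (-1.66 ± 0.86).

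S phase genes did not share this skew. Of 67 tested, 36 had a higher and 31 a lower level, the median was 0.08, and 5 lay above without overlap and 0 below, beside 4.45% and 4.19% of all tested genes. Without GFI1-KI replicate 2 the count was 31 and the median -0.07. Slbp was the only member with an unadjusted p under 0.05. Of 23 genes of cell cycle inhibitors and D cyclins, 11 had a higher and 12 a lower level, and the median was -0.05. Ccnd2, a D-type cyclin on the list of GFI1 targets, was at 784, 728 and 697 CPM in GFI1-KI and at 936, 1020 and 988 CPM in Gfi1-WT (-0.41 ± 0.40, SE), without overlap.

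Interferon-stimulated genes leaned toward Gfi1-WT. Of 55 tested, 35 had a lower and 20 a higher level in GFI1-KI. Their median log2 fold change was -0.30, and 9 lay below Gfi1-WT without overlap against 1 above, beside 4.19% and 4.45% of all tested genes. Among the 17 members at 100 CPM or more, 15 were lower and the median was -0.50, beside -0.05 over all genes of that level. Only Ifitm2 had an unadjusted p under 0.05. The SD between replicates of the list's mean level was 0.56, larger than the median difference. Without GFI1-KI replicate 2 the count was 33 of 55 and the median -0.29, while without Gfi1-WT replicate 2 it was 28 of 56 and the median -0.06.

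Ifitm3, which restricts virus entry like Ifitm2, was at 360, 354 and 468 CPM in GFI1-KI and at 562, 715 and 498 CPM in Gfi1-WT (-0.59 ± 0.28, SE). Gbp2, an interferon-induced GTPase, was at 2.97, 64.7 and 91.9 CPM against 178, 137 and 195 CPM (-1.68 ± 0.84). GFI1-KI was below Gfi1-WT in every library for both genes. B2m, the light chain of MHC class I, was at 3306, 2434 and 3166 CPM against 3936, 4922 and 3360 CPM (-0.46 ± 0.22), and 16 of 23 MHC genes were lower, their median being -0.23 (-0.07 without Gfi1-WT replicate 2).

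**Figure D4:**
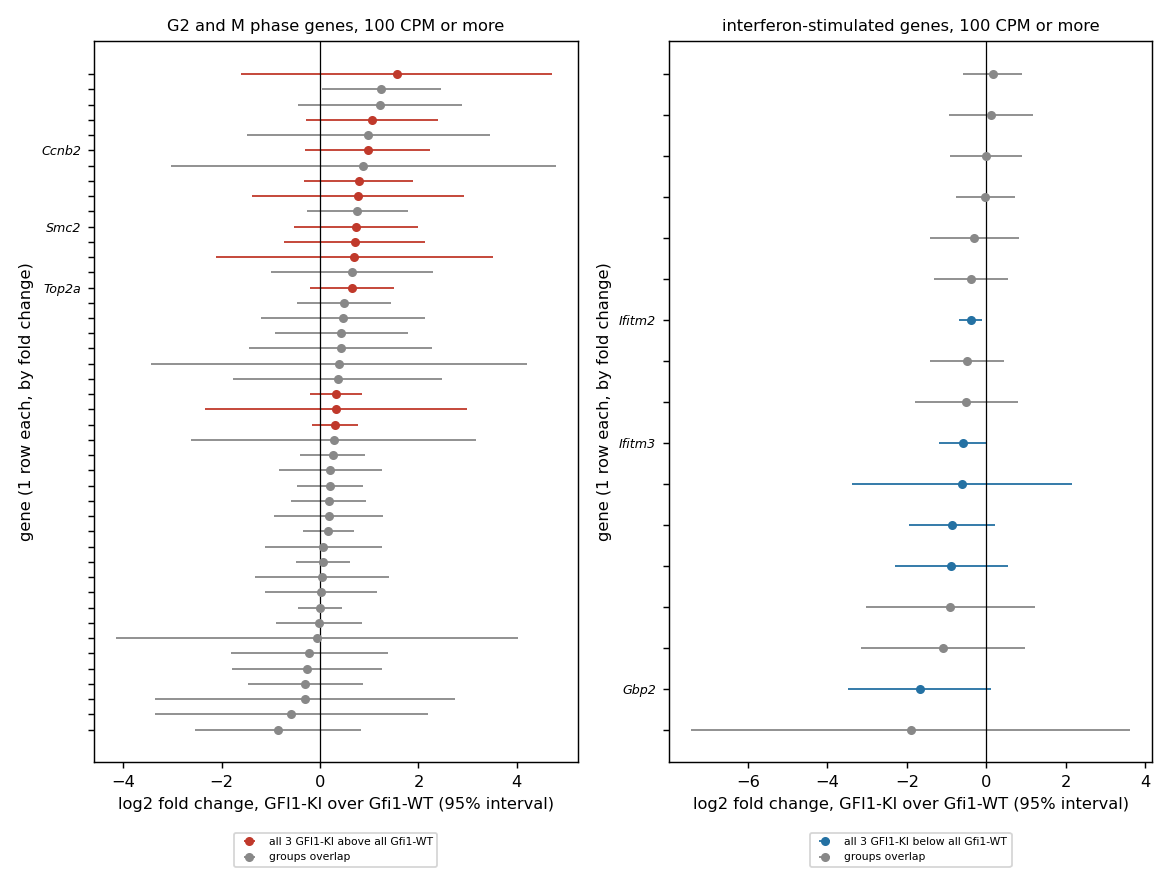
Log2 fold change of GFI1-KI over Gfi1-WT with its 95% interval for the 44 G2 and M phase genes (left) and the 17 interferon-stimulated genes (right) with a mean of 100 CPM or more. Each row is a gene, labelled where its values are given in the text, and red and blue mark genes whose groups do not overlap. Of the 44 genes 35 lie to the right of 0, of the 17 genes 15 lie to the left, and all but 1 interval in each panel cross 0.

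Genes reported as targets of GFI1 were balanced. Of 35 tested, 17 had a higher and 18 a lower level around a median of -0.05, and Csf1, the macrophage growth factor, was the only one with an unadjusted p under 0.05. Leaving out 1 library took the median from -0.06 (GFI1-KI replicate 2) to 0.16 (Gfi1-WT replicate 1), and leaving out any of the 5 libraries other than GFI1-KI replicate 2 put it above 0. Csf1 was at 0 in all GFI1-KI libraries and at 8.28, 1.3 and 0 CPM in Gfi1-WT. Csf1r, its receptor, was at 0, 3.67 and 1.72 CPM against 0.347, 0 and 0 CPM. Fos was at 1276, 497 and 781 CPM against 833, 995 and 647 CPM (0.05 ± 0.38, SE), and Trp53 at 164, 178 and 150 CPM against 142, 374 and 330 CPM (-0.78 ± 0.43). Of 31 genes of GFI1 partners, such as Kdm1a and Rcor1, 14 had a higher and 17 a lower level (median -0.06, and 0.10 without Gfi1-WT replicate 2). Of 37 p53 target and apoptosis genes 18 had a higher and 19 a lower level (median -0.07, which became 0.10 without Gfi1-WT replicate 2 and 0.16 without replicate 3 of that genotype).

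Most cytosolic ribosomal protein genes were narrowly bounded. Of 82 cytosolic ribosomal protein genes, 39 had a higher and 43 a lower level around a median of -0.02, and 71 (86.6%) had an interval within a doubling or halving. The count of higher genes depended on single libraries. It was 7 without GFI1-KI replicate 1 and 13 without Gfi1-WT replicate 1, where the medians were -0.19 and -0.15, and 63 without Gfi1-WT replicate 2, with a median of 0.09. Rplp0 was among the 2 members with an unadjusted p under 0.05, both of them lower in GFI1-KI, that is 2.44% of the list beside 2.09% of all tested genes. Of 75 nuclear respiratory chain genes 47 had a higher level and the median was 0.07, but without GFI1-KI replicate 1 the count was 30 and the median -0.06, and without Gfi1-WT replicate 1 they were 30 and -0.04. For the mitochondrially encoded genes it was 12 of 13 and 0.21, which became 7 of 13 without GFI1-KI replicate 1 and 6 of 13 without Gfi1-WT replicate 2. One of these, mt-Atp6, a subunit of ATP synthase, was at 7926, 7048 and 6072 CPM against 7128, 3175 and 7130 CPM, where Gfi1-WT replicate 2 alone was low.

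Translation factors had a median of -0.09 over 44 genes, 18 higher and 26 lower. Eif3c, a subunit of the initiation factor that binds the small ribosomal subunit, was at 250, 249 and 195 CPM in GFI1-KI and at 316, 324 and 352 CPM in Gfi1-WT (-0.52 ± 0.22, SE). The GFI1-KI libraries were below all 12 other libraries for Eif3c, which made it the third gene named here, with Psmb2 and Ifitm2, to lie there. Of 42 early response genes 21 had a higher and 21 a lower level, and the median was -0.0022, with a range from -0.23 without GFI1-KI replicate 1 to 0.10 without Gfi1-WT replicate 3.

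Genes around the edited locus were examined because a targeted allele can carry linked sequence. Of 163 symbols with a start within 5 Mb of that of Gfi1, 82 were tested, of which 36 had a higher and 45 a lower level (median -0.10). Within 1 Mb there were 24 tested genes, 12 higher and 12 lower. Mtf2, a Polycomb-like protein of the PRC2 complex (chr5:108065674-108109004, GRCm38), starts 0.34 Mb from the Gfi1 start and was at 228, 413 and 591 CPM in GFI1-KI and at 207, 170 and 179 CPM in Gfi1-WT. Its groups did not overlap, and the log2 fold change was 1.15 ± 0.49 (SE; edgeR, unadjusted p = 0.0363, adjusted p = 1). Ptpn13 was the other gene under 0.05, at 0, 3.22 and 28.1 CPM against 0 in Gfi1-WT. These 2 genes are 2.44% of those tested, beside 2.09% of all genes. Without overlap, 3 of the 82 lay above and 2 below, beside 4.45% and 4.19% of all tested genes. Tgfbr3, at -0.436 Mb, lay above at 542, 416 and 439 CPM against 27.8, 69 and 415 CPM. Ccdc18, at 0.407 Mb, lay below at 0.0947, 28.8 and 12.7 CPM against 48.5, 63.3 and 94.7 CPM.

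**Figure D5:**
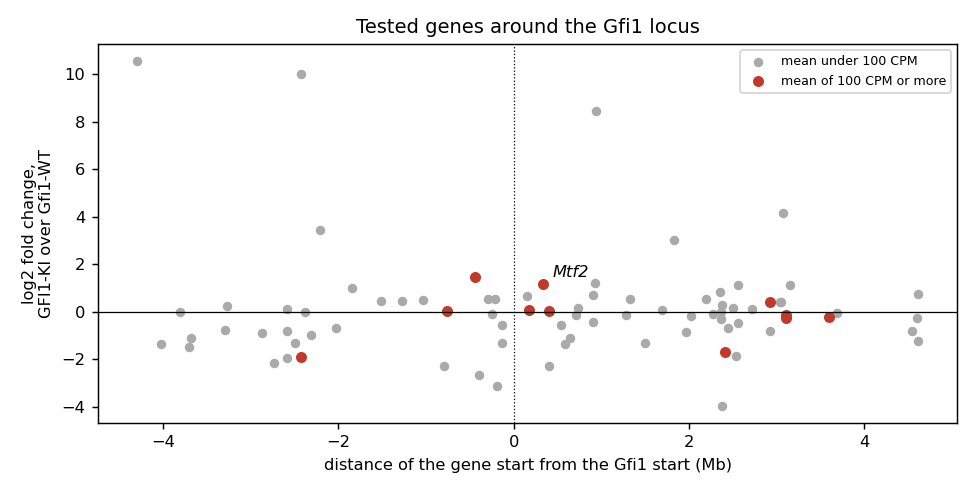
Log2 fold change of GFI1-KI over Gfi1-WT against the distance of each gene start from the Gfi1 start (Mb) for 82 tested genes, 1 point per gene, red at a mean of 100 CPM or more. The 36 higher and 45 lower genes lie on both sides of the locus, and Mtf2 is at 1.15.

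Y-linked and strain-marker genes did not separate the genotypes. Ddx3y was at 0 to 0.281 CPM and Eif2s3y at 0 to 0.627 CPM in the 6 libraries, while the other 9 libraries reached 247 and 219 CPM. Uty was at 4.78 to 12.8 CPM and Kdm5d at 1.17 to 4.74 CPM in the 6 libraries, while the other 9 reached 67.3 and 191 CPM. The lowest values of Uty and Kdm5d in those 9 libraries were 3.39 and 1.86 CPM, so both genes were above 0 throughout the series. In the 6 libraries Ddx3y and Eif2s3y were thus near 0 while Uty and Kdm5d were not. The groups overlapped for each of these Y-linked genes. Nnt, which is deleted in part in the C57BL/6J substrain, was at 9, 45.4 and 58.1 CPM in GFI1-KI and at 60.5, 40 and 133 CPM in Gfi1-WT. It was thus above 0 in all 6 libraries, and the groups overlapped.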

How the data were processed

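RNA from FACS-sorted HSCs was sequenced single-end from poly(A) libraries. The authors quantified the reads with Salmon against mouse cDNA (GRCm38, Ensembl) and deposited length-scaled TPM per transcript and per gene symbol, which are estimated counts. Human GFI1 was not in that reference. The labels also name sleuth 0.30.0 and R 4.2.1. The deposited estimated counts were rounded to whole numbers, and the row with no symbol (0.0192 to 0.067% of counts in the 6 libraries) was left out. Genes passing filterByExpr (minimum count 10, minimum total 15) were fitted with TMM and the quasi-likelihood F test in edgeR 4.0.16 (R 4.3.3) over all 15 libraries of 5 genotypes, giving 10 residual degrees of freedom, with Benjamini-Hochberg adjustment at 0.05. The common biological coefficient of variation was 1.39. The SE is the log2 fold change over the square root of F. Murine Gfi1 was tested by an exact permutation test. sleuth was not run. Columns were matched to samples by the library number in the titles. Coordinates came from GENCODE M21 (GRCm38), and promoters from RefSeq.

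The named genes were the 8 per direction with the lowest p, the 6 per direction with the lowest p at a mean of 100 CPM or more, Gfi1, Gfi1b, sort, sex and flanking genes, and up to 3 genes per list with the lowest p. Some genes that this rule names are not reported here. The comparison and the gene lists were chosen with earlier results of these data known. Lists are described by counts and medians without a test. Alternatives were limma 3.58.1, DESeq2 1.42.0, other normalizations and filters, only the 6 libraries, the replicate block and leaving out each library. The edgeR procedure was run on simulated counts with changes planted only in genes of higher mean count. That run does not cover changes in genes of low count.

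Same-numbered libraries did not deviate together (correlations -0.0501, -0.00244 and 0.0015 for replicates 1 to 3), so the numbers were not treated as pairs.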

Additional observations from a re-analysis of the deposited data

How the results depend on the processing

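The count at an adjusted p under 0.05 was 0 in every edgeR alternative and in limma-trend, whereas DESeq2 called 131, of which 110 were at 0 in every library of a genotype. At an unadjusted p under 0.01, 34 genes were called with only the 6 libraries in the fit, 231 by DESeq2 and 52 by limma-trend, and 7 to 38 when 1 library was left out. At an unadjusted p under 0.05, the count was 454 with no filter on low counts, 147 with the filter of sleuth (5 counts in 47% of libraries) and 510 by DESeq2. The replicate block, which treats the replicate number as a shared batch, gave 0 genes after adjustment, 13 at an unadjusted p under 0.01 and 197 at 0.05. Upper quartile and RLE scaling shifted the median of all genes by 0.0104 and 0.00544 and changed the direction of none of the 105 named genes tested.

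Of 27 lists, the median kept its sign in all alternatives for 8, namely G2 and M phase, interferon-stimulated, MHC, translation factor, cell cycle brake and D cyclin, T and NK cell, stroma and endothelium, and strain genes. The G2 and M phase median ranged from 0.31 to 0.43, and the interferon-stimulated median from -0.62 to -0.06. The MPP median was 0.379 with only the 6 libraries and 0.374 with the sleuth filter. The neutrophil granule median was 2.72 with no filter, and that of stroma and endothelium genes -0.047 in limma-trend. With 1 library left out, medians ranged from 0 to 2.4 for MPP genes, -4.9 to 2.17 for neutrophil granule genes, 0 to 3 for monocyte and macrophage genes and -0.343 to 1.19 for sort genes. They ranged from -0.19 to 0.497 for B cell genes, 0.0662 to 0.683 for T and NK cell genes, -0.272 to 0.235 for megakaryocyte genes and -0.249 to 0.163 for p53 target and apoptosis genes. The range was -0.23 to 0.103 for early response genes and -0.672 to 0.451 for sex genes. The cause of these shifts was not tested. The Gfi1 difference of 50.7 estimated counts stayed positive, from 14 to 76.9 with 1 library left out.

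With 3 libraries per genotype and a median SE of 1.62 on the log2 scale, a missing call does not show equal expression. Genes under 10 CPM had no interval within a doubling or halving.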
